A study of Mus musculus with 8 samples.

Results

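The levels of 4 posterior genes of the trunk and hindgut were followed in primary colonic intestinal epithelial cells (IECs), namely *Hoxb13*, *Hoxa13*, *Evx1* and *Hottip*. They were chosen by name from the 309 genes that the authors' day 0 table lists, and 4 of 4 were found there, while 0 of them were among the 128 genes of the day 7 table. Both tables hold only genes past the authors' thresholds for a difference between the genotypes, and these 4 were picked with their day 0 values known, so their levels are described without a test. One genotype, *Efhd2* f/f Vil1 cre/+, carries Cre under the villin promoter, which deletes the floxed exon 2 of *Efhd2* in the intestinal epithelium, and the control genotype, *Efhd2* f/f, has the same floxed alleles without Cre. They are called KO and WT here, as in the labels. Day 0 mice had no dextran sodium sulfate (DSS), an irritant given in drinking water that injures the colonic epithelium, and day 7 mice were taken 7 days after DSS began. Each of the 4 groups had 2 libraries, the mice of the study were 8 to 10 weeks old and of both sexes, and whether a library was 1 mouse or a pool is not given in the sources used here. The sources likewise do not say which stretch of the colon each library covered, beyond the opening of the colon along its length and the release of IECs with EDTA.

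Hox genes encode homeodomain transcription factors that lie in clusters and are switched on in a head-to-tail order along the body axis, so that the genes of the last paralog group mark its hindmost part. In the gut the *Hox13* genes are known for their part in forming the hindgut, the colon's posterior end and the urogenital outlet, and their expression persists in the epithelium of the adult distal colon. *Hoxb13* and *Hoxa13* belong to this group. *Evx1*, a relative of the fly gene even-skipped, lies just beyond the posterior end of the HoxA cluster, and *Hottip* is a long noncoding RNA gene transcribed away from *Hoxa13* that is known for keeping the posterior HoxA genes active through the WDR5 and MLL chromatin complex.

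On the build of the files, GRCm38, *Hoxa13* (ENSMUSG00000038203) lies on the minus strand of chromosome 6 from 52257694 to 52260880. *Hottip* (ENSMUSG00000055408) starts 1895 bases away on the plus strand and runs from 52262775 to 52267603. *Evx1* (ENSMUSG00000005503), also on the plus strand, runs from 52313498 to 52318378, and its start is 52.6 kilobases from that of *Hoxa13*. *Hoxb13* (ENSMUSG00000049604) is in another cluster, HoxB, on the plus strand of chromosome 11 from 96194316 to 96197447. Thus 3 of the 4 genes sit in one stretch of chromosome 6, and *Hoxb13* is on another chromosome. All 4 have the same coordinates in GENCODE release M21, with 2 exons in *Hoxb13* and in each transcript of *Hottip*, 3 in *Evx1* and 2 to 5 in the transcripts of *Hoxa13*.

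**Figure D1:**
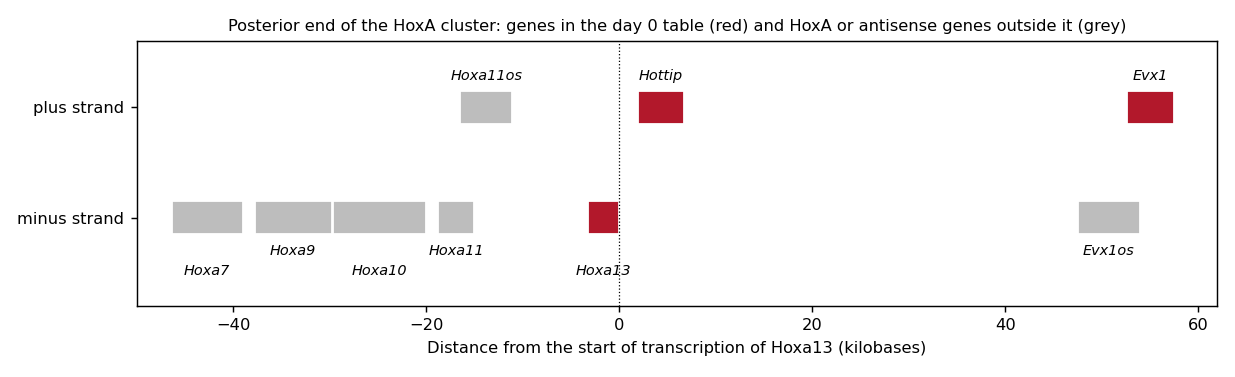
Map of the posterior end of the HoxA cluster, with distance from the start of transcription of *Hoxa13* in kilobases on the horizontal axis, strand on the vertical axis, genes of the day 0 table in red and HoxA genes and antisense genes outside it in grey (other RNA genes are not drawn). *Hoxa13*, *Hottip* and *Evx1* are red, while *Hoxa7*, *Hoxa9*, *Hoxa10*, *Hoxa11*, *Hoxa11os* and *Evx1os* between and beside them are grey.

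The promoters of the 3 genes at the HoxA cluster are shown because these genes are neighbours that were higher together. RefSeq's sequences for GRCm38.p6 matched 3 of the 4 genes. Each runs from 250 bases before to 50 bases after the start of transcription, 5′ to 3′ on the strand of the gene, with CAATAAA in capitals. This is a core bound by posterior HOX and CDX homeodomain proteins, and both strands were searched for it, which means also for TTTATTG. The windows are chr6:52260831-52261130 (minus strand) for *Hoxa13*, chr6:52262525-52262824 (plus) for *Hottip* and chr6:52313248-52313547 (plus) for *Evx1*.
Hoxa13: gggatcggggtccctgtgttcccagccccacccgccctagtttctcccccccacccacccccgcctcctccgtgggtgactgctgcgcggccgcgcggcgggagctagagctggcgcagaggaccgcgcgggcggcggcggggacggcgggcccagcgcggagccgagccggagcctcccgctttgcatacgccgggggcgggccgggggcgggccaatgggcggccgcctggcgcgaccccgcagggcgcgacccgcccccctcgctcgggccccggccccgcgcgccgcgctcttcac
Hottip: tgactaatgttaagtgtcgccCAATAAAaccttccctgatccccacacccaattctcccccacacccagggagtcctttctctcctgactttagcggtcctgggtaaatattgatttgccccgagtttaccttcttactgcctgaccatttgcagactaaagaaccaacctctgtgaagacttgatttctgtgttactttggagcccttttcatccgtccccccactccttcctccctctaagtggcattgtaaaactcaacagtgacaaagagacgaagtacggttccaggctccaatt
Evx1: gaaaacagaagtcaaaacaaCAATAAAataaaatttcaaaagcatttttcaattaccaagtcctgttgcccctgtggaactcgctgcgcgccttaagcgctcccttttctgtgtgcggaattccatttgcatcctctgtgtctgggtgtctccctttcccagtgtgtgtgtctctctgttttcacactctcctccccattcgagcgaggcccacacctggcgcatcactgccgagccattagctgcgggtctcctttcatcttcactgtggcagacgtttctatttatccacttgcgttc
The *Hoxa13* window was 81.0% G and C and had 45 CpG, more than in 98.1% of the 32817 promoters of the RefSeq table. It held CAATAAA 0 times. The *Hottip* and *Evx1* windows were 47.7% and 48.7% G and C, below the median of 52.7%, with 6 and 12 CpG beside a median of 7. Each held CAATAAA once, 229 bases before the start in *Hottip* and 230 bases before it in *Evx1*. CAATAAA was in 4.60% of all promoters of this length. Of the 197 listed genes of day 0 with a promoter entry, 6.60% had it. Another core known for posterior HOX proteins, TTTAC (or GTAAA), was found 3 times in *Hottip* and 0 times in *Hoxa13* and *Evx1*, beside 31.5% of all promoters with at least one. CCAAT (or ATTGG), whose letters can overlap those of CAATAAA, was present 3 times in *Hottip*, once in *Hoxa13* and 0 times in *Evx1*, beside 37.4% of all promoters. TATAAA (or TTTATA) was in 0 of the 3 windows and in 13.6% of all promoters. These matches are letters in a window and not sites shown to be bound.

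At day 0, all 4 genes were higher in KO IECs than in WT IECs, by 2.11-fold to 2.75-fold in the ratio of means. For each gene the lower KO library lay above the higher WT library. The same held for all 99 listed genes that were higher in KO, which are 32.0% of the 309 listed genes. The targeted gene had the opposite direction, with *Efhd2* at 556 and 713 normalized counts in libraries 51 and 53 of KO IECs and at 2663 and 2686 in libraries 50 and 52 of WT IECs. A normalized count is the authors' read count per gene after scaling between libraries. The day 0 values of the listed genes summed to 205066 and 257002 normalized counts in KO and to 149389 and 150452 in WT. With these sums made equal, the log2 differences of the 4 genes were 0.45 to 0.90, still higher in KO. The sums cover only genes listed for a difference. They include dissociation and heat stress genes that summed to 34404 to 43126 in KO and 5465 to 5887 in WT. Making the sums equal lowers KO values relative to WT. It is not a scaling by depth, and depth stayed unknown here. In bulk IECs, more cells of a kind and more RNA per cell cannot be told apart.

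*Hoxb13*, whose product is the homeodomain factor known from the hindgut and prostate, had the largest ratio of means, at 2.75 beside 2.74 for *Evx1*. It was at 538 and 497 normalized counts in KO libraries 51 and 53, and at 134 and 243 in WT libraries 50 and 52. The groups did not overlap, and the WT libraries were far apart, since library 52 was 1.81 times library 50 while the other pair differed by 1.08 times. The means were 518 ± 29.2 and 188 ± 76.7 (s.d., n = 2 libraries each), a log2 difference of 1.51 (standard error 0.43). Here and below the log2 difference is that of log2(normalized count + 1), KO minus WT.

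*Hoxa13*, which acts with *Hoxd13* in hindgut and limb patterning, was at 385 and 358 normalized counts in libraries 51 and 53 and at 150 and 201 in libraries 50 and 52. Here too the KO libraries lay close together and the higher control was library 52. The means were 372 ± 19.3 and 175 ± 35.9 (s.d., n = 2 each), with a log2 difference of 1.09 (standard error 0.22). This is just above 1, the value the authors set as the listing threshold for their own log2 fold change, a different measure.

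*Hottip* had the other value near that threshold. It was at 88.2 and 107 normalized counts in libraries 51 and 53 and at 49.998 and 42.4 in libraries 50 and 52. In contrast to the 3 homeobox genes, its higher control library was 50. Its KO libraries were 1.21 times apart, with library 53 the higher, as for *Evx1*. The means were 97.5 ± 13.1 and 46.2 ± 5.36 (s.d., n = 2 each), and the log2 difference was 1.06 (standard error 0.18). The short RNA genes Gm27985, Gm27383 and Gm27866 overlap *Hottip* on its own strand by 195, 361 and 171 bases. These overlaps are over the whole genes, introns included, and the exonic part was not measured. How reads from any shared exonic stretch were counted is not given in the sources used here.

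*Evx1*, a homeodomain repressor known from posterior and spinal cord patterning, was at 50.7 and 54.7 normalized counts in libraries 51 and 53 and at 14.7 and 23.7 in libraries 50 and 52. The groups were again apart, with library 52 above library 50. The means were 52.7 ± 2.86 and 19.2 ± 6.42 (s.d., n = 2 each), a log2 difference of 1.45 (standard error 0.33). Low values of libraries 51 and 50 fell on regular steps of 1.01 and 0.980 normalized counts, and if a step is 1 read, these levels rest on few reads. The steps of libraries 53 and 52 were less regular. The antisense gene *Evx1os* overlaps *Evx1* by 1335 bases over the whole genes, introns included, and the exonic part was not measured. Whether the authors counted reads by strand is not given in the sources used here. Reads from any shared exonic stretch therefore cannot be assigned to either gene with certainty.

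**Figure D2:**
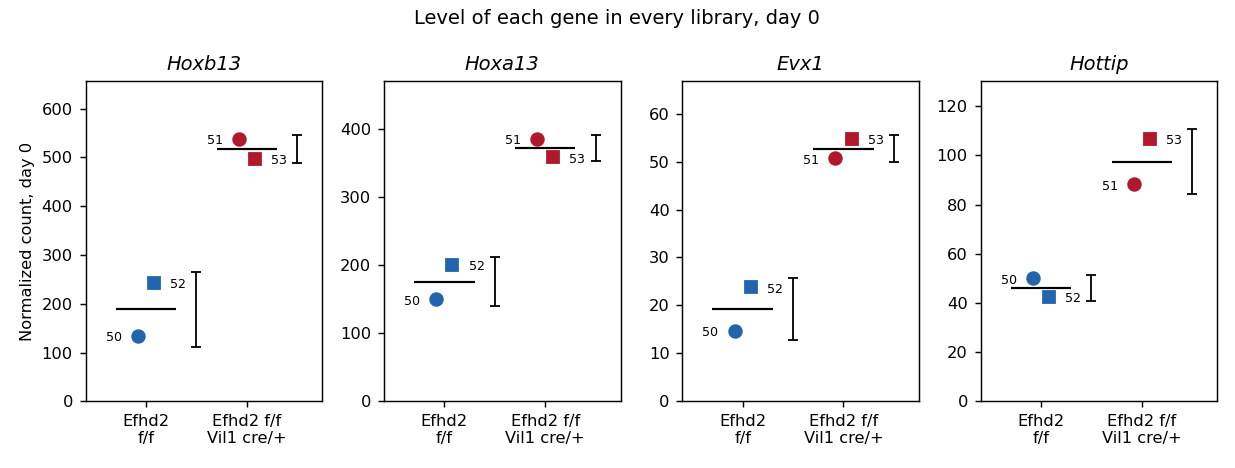
Normalized count of *Hoxb13*, *Hoxa13*, *Evx1* and *Hottip* in each day 0 library (points, with library numbers), with the mean of each genotype (line) and its s.d. (bar, n = 2), each panel on a linear axis from 0. Both KO libraries (51 and 53, red) are above both WT libraries (50 and 52, blue) in every panel, and the controls of *Hoxb13* are spread from 134 to 243.

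Per kilobase of the gene length given in the tables, *Hoxb13* was highest, followed by *Hoxa13*, *Hottip* and *Evx1*, and each of the 4 libraries gave this order. In KO IECs the levels were 235 ± 13.2 normalized counts per kilobase for *Hoxb13*, 150.3 ± 7.81 for *Hoxa13*, 33.9 ± 4.55 for *Hottip* and 18.3 ± 0.995 for *Evx1*. In WT IECs they were 85.4 ± 34.8, 70.9 ± 14.5, 16.1 ± 1.86 and 6.68 ± 2.23 in the same order (s.d., n = 2 each). *Hoxb13* and *Hoxa13* did not differ beyond their spread in the controls, where library 50 had 60.8 and 60.6 normalized counts per kilobase for them. In KO IECs the level of *Hoxb13* was 1.57 and 1.56 times that of *Hoxa13* in libraries 51 and 53, beside 1.003 and 1.36 in libraries 50 and 52. The level of *Hoxa13* was 3.49 to 5.51 times that of its neighbour *Hottip*, and the ranges of the genotypes overlapped for this ratio.

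**Figure D3:**
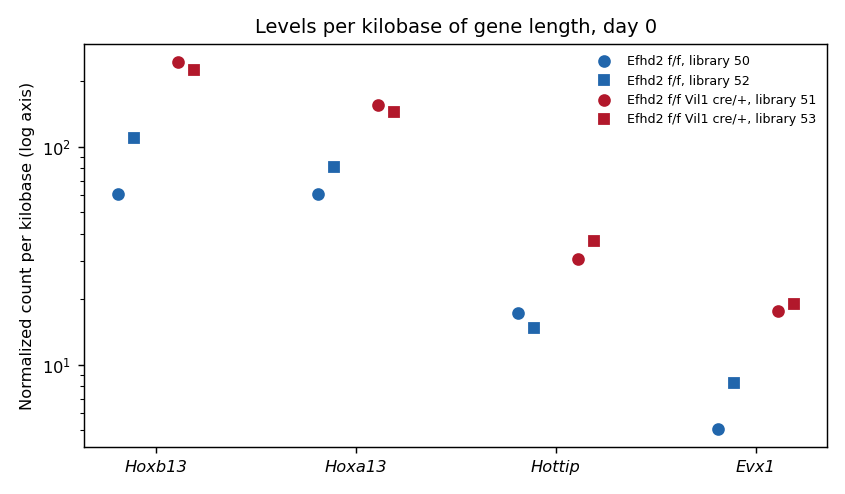
Normalized count per kilobase of gene length (log axis) for the 4 genes in each day 0 library, circles and squares being the separate libraries of a genotype. *Hoxb13* and *Hoxa13* lie well above *Hottip* and *Evx1* in all 4 libraries, and in library 50 the first pair nearly coincide at 60.8 and 60.6.

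The replicate spread had the same form in the 3 homeobox genes but not in *Hottip*. For the 3 homeobox genes, library 52 was above library 50, which was also so for 70.7% of the 99 listed genes that were higher in KO IECs. Between the WT libraries the log2 levels of *Hoxb13* differed by 0.85, those of *Evx1* by 0.66, those of *Hoxa13* by 0.42 and those of *Hottip* by 0.23, where the median over those 99 genes was 0.51. Between the KO libraries the differences of the 3 homeobox genes were 0.11, 0.11 and 0.11, and that of *Hottip* was 0.27, the same as the median of 0.27. With any 1 library left out, the log2 differences stayed between 1.09 and 1.94 for *Hoxb13*, 1.12 and 1.78 for *Evx1*, 0.88 and 1.30 for *Hoxa13*, and 0.92 and 1.2 for *Hottip*. *Hoxa13* came to 0.88 without library 50, and *Hottip* to 0.92 without library 53 and 0.94 without library 52, so these 2 genes could fall short of a log2 difference of 1.

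Within the table the 4 differences were moderate. Limma called 30.4% of the 309 listed genes higher (94 genes) and 62.5% lower (193 genes) on log2(normalized count + 1), and so 92.9% in either direction, at a Benjamini-Hochberg adjusted p under 0.05 and an absolute log2 difference above 1. With equal sums it called 30 higher and 207 lower, 0 of the 4 posterior genes among them. Without library 51, 53 or 50 it called 0 genes at all, with 36, 42 and 61 genes higher and 75, 107 and 101 lower at an unadjusted p under 0.05. On the deposited scale the 4 posterior genes were all among the 94, which their listing had largely fixed, so this is no test of them. Among the 99 genes with a higher mean, *Hoxb13* ranked 43rd in log2 difference, *Evx1* 51st, *Hoxa13* 89th and *Hottip* 92nd, around or below the median of 1.45. In abundance *Hoxb13* and *Hoxa13* were above 78.0% and 73.5% of the listed genes, *Hottip* above 41.4% and *Evx1* above 25.2%.

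**Figure D4:**
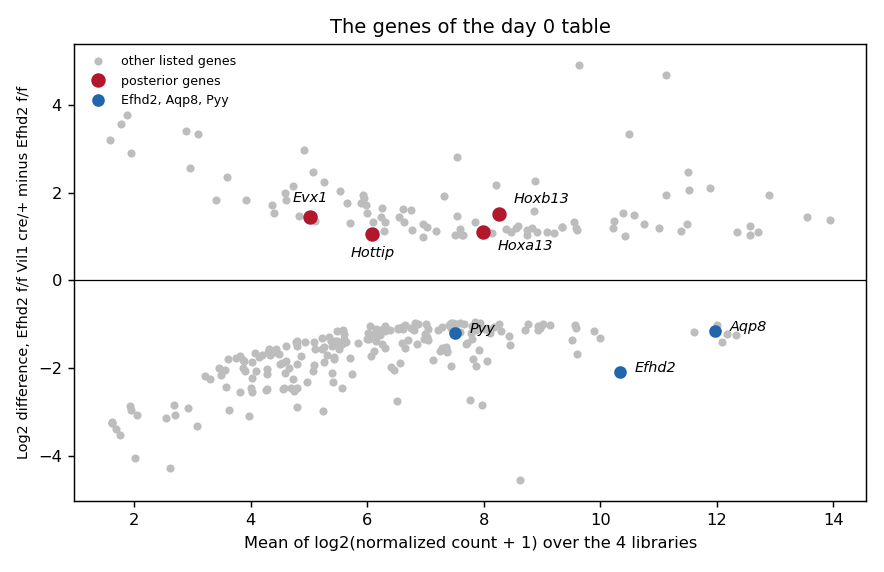
Log2 difference between the genotypes against the mean log2(normalized count + 1) over the 4 libraries for the 309 genes of the day 0 table, with the posterior genes in red and *Efhd2*, *Aqp8* and *Pyy* in blue. The band around 0 is empty because the table lists only genes past the authors' thresholds. The red points lie at 1.06 to 1.51, and *Aqp8* and *Pyy* at -1.15 and -1.21.

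No other Hox gene was listed. GENCODE has 39 Hox genes in the clusters A to D, of which *Hoxa13* and *Hoxb13* were the 2 listed on day 0, and 0 were listed on day 7. On a list of 23 posterior Hox genes and their neighbours, which includes *Hoxa9* to *Hoxa11*, *Hoxd9* to *Hoxd13*, *Evx2*, *Hotair* and *Evx1os*, the 4 genes described here were the ones listed. Their median log2 difference was 1.27, beside 1.45 over the 99 listed genes that were higher in KO. The 4 were picked with their day 0 values known, so the sign of their median was fixed. From 23 anterior and central Hox genes, 12 cofactors and chromatin regulators of Hox genes (among them *Meis1*, *Wdr5* and *Ezh2*) and 13 regional factors of the intestine (among them *Cdx2* and *Gata4*), 0 were listed on either day. A gene outside the table either missed a threshold or was not counted, and its level was not analysed here. Within 1 megabase of *Hoxb13*, 0 of 94 annotated genes were listed, among them 9 other Hox genes. Within the same distance of *Hoxa13*, 2 of 71 were, and these were *Hottip* and *Evx1*.

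By the family column of the tables, 20 transcription factors were listed on day 0, with 11 higher and 9 lower, and 4 of the 20 were homeobox genes. The fourth homeobox gene was *Lmx1a*, known from enterochromaffin cells of the gut, and it was lower, at 20.3 and 30.7 normalized counts in libraries 51 and 53 against 64.7 and 60.8 in libraries 50 and 52. The day 7 table held 3 transcription factors, of which 0 were homeobox genes. *Hottip* was 1 of 14 lincRNA genes listed on day 0 and 1 of the 4 among them that were higher.

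Of 11 genes for functions of the distal colonic epithelium, 2 were listed on day 0, *Aqp8* and *Pyy*, and both were lower, with a median log2 difference of -1.18. Among all listed genes 210 of 309 were lower. *Aqp8*, a water channel of surface colonocytes, was at 2213 and 3293 normalized counts in libraries 51 and 53 and at 5138 and 6943 in libraries 50 and 52. *Pyy*, a peptide hormone of enteroendocrine L cells, was at 123 and 114 against 370 and 203. The groups did not overlap for either gene. The other 9, among them *Insl5*, *Gcg*, *Scnn1b*, *Car4* and *Slc26a3*, were not in the table, and their direction is not known here. Beside *Pyy*, some listed transcription factor genes known from enteroendocrine cells were lower. Their log2 differences were -1.40 for *Insm1*, -1.70 for *Fev*, -1.76 for *Pax6*, -1.52 for *Myt1* and -1.29 for *Lmx1a*. These were picked after their values were seen, from the 9 listed transcription factors that were lower. Another 11 listed transcription factors were higher, among them *Foxa2* at 1.14. Since the named genes were chosen by value, no direction of enteroendocrine factors as a set follows. The 4 genes are called posterior genes here after their place in the Hox clusters, since too few other distal colon genes were listed to check a wider label.

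From 21 absorptive genes more typical of the small intestine, 3 were listed and these 3 were lower, while the others have no value here. The listed genes were the brush-border aminopeptidase genes *Anpep* and *Enpep* and the apolipoprotein gene *Apoa1*, with log2 differences of -2.74, -2.85 and -2.48. Their summed level was 100.4 and 197 normalized counts in the KO libraries and 852 to 1072 in the WT libraries. Their part in the result was not tested.

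Markers of other cell types and of stress were among the day 0 genes, where listing itself required a difference between the genotypes. From 12 genes of dissociation and heat stress, 6 were listed and all 6 were higher, with log2 differences of 4.91 for *Hspa1a*, 4.68 for *Hspa1b*, 3.34 for *Hsph1*, 2.11 for *Hsp90aa1* and 2.06 for *Dnaja1*. They had a summed level of 34404 to 43126 normalized counts in KO libraries and 5465 to 5887 in WT libraries. From the same list *Fos*, *Fosb*, *Jun*, *Junb*, *Egr1* and *Atf3* were not listed and have no value here. From 11 T and NK cell markers, 6 were lower, with *Xcl1*, *Trdc*, *Trac*, *Nkg7* and *Cd7* at -1.60, -1.22, -1.16, -1.07 and -1.01, and with sums of 1077 to 1277 against 1991 to 3250. Whether these genes had a part in the differences of the posterior genes was not tested. Of 11 markers of mesenchyme and smooth muscle, *Dcn* was listed, at 20.3 and 62.5 normalized counts against 112 and 131, and the other 10 have no value here. From 11 markers of the squamous epithelium of the anorectal junction, 8 epithelial markers including *Epcam* and *Vil1*, and 6 goblet cell markers, 0 were listed, so the labelled cell type could not be checked from levels. Of 6 Paneth cell markers 3 were listed, each resting largely on 1 library. *Mptx2* was at 4653 and 1117 normalized counts in libraries 51 and 53 against 711 and 870 in libraries 50 and 52. *Defa24* was listed at 0 in libraries 51, 53 and 50 and was at 86.9 in library 52, and *Lyz1* was at 6.07 and 2.73 against 12.6 and 54.8. From 8 B and plasma cell markers *Ighd* was listed, lower. From 8 neutrophil and macrophage markers, 0 were listed on day 0 and 2, *S100a8* and *S100a9*, on day 7, both higher. On day 7 *Defa24* was listed at 0 in both KO libraries and was at 40.1 and 3.52 normalized counts in the WT libraries.

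The genes with the most similar profiles over the 4 libraries were found by the root mean square difference of log2 levels after centring each gene on its own mean. *Hoxb13* was nearest to *Itga5*, the fibronectin receptor subunit gene, at 0.039, then to *Gm15542* at 0.096 and *Fam43a* at 0.107. *Evx1* was nearest to *Fam43a* at 0.035, then to *Itga5* at 0.081 and *Selenbp2* at 0.108. *Hoxb13* and *Evx1*, which lie on different chromosomes, each held rank 4 in nearness to the other, at 0.109. *Itga5* stood at 311 and 301 normalized counts in libraries 51 and 53 and at 83.2 and 148 in libraries 50 and 52, the same wide step between the controls as in *Hoxb13*.

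*Hoxa13* was nearest to *Aqp4*, a water channel gene, at 0.065, then to *Hyou1*, a chaperone gene of the endoplasmic reticulum, at 0.074, and to *Fkbp4*, an Hsp90 cochaperone gene, at 0.082. *Hottip* was nearest to *Dusp6*, a phosphatase gene of the ERK pathway, at 0.081, then to *Tcf7l1* at 0.121 and *Cbr2* at 0.129. The neighbours *Hoxa13* and *Hottip* were less alike, at 0.266, and each had more than 20 listed genes nearer to it than the other. All listed genes were selected on these same 4 libraries, so nearness of profile is a description over 4 points and nothing more.

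On day 7, after DSS, the 4 genes were not among the 128 listed genes by name or by gene ID, nor was any gene within 1 megabase of them. Their levels on that day were not analysed here, and a difference between the days was not tested. Whether the tables were normalized together is not given in the sources used here, so no level was compared across days.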

How the data were processed

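IECs of the colon were profiled by RNA sequencing in 8 libraries. For each day the authors deposited 1 table with normalized counts per gene and library (used as signal), the mean signal of each genotype, the gene length in bases, and the results of their own test (a log2 fold change and a p-value, raw and adjusted). The fold change and adjusted p-value were read only to check that each listed gene passes the stated thresholds, and no value of that test is reported. The submitters' processing notes name CASAVA 1.8, fastp, HISAT2 2.0.5, featureCounts 1.5.0-p3, DESeq2 1.20.0 and GRCm38/mm10. How the signal was scaled is not given in the sources used here.

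From the deposited signal, 25 values under 1e-06 on day 0 were set to 0, and log2(normalized count + 1) was computed. The genotypes were compared over all 309 listed genes with limma 3.58.1 in R 4.3.3 (lmFit, eBayes, Benjamini-Hochberg), tested on simulated data, as a background only. The share of low values within 0.1 of a whole step was 58.8% to 100%, so whole reads were not recovered, depth stayed unknown, and no counting interval was computed. Columns carry genotype, day and a library number that is on no label. Coordinates were checked in GENCODE M21 (309 of 309 genes found, 294 with identical coordinates). Motifs were counted in RefSeq promoters with Python 3.11.15.

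The members, gene lists and motifs were chosen with earlier results of these data known. Genes were named by a rule: the 4 members, listed genes of the fixed lists (at most 5 each), the 3 nearest profiles per member, listed genes within 1 megabase, and *Efhd2*. *Lmx1a*, *Insm1*, *Fev*, *Pax6*, *Myt1* and *Foxa2* were named after their values were seen. Alternatives were pseudocounts of 0.1 and 10, equal sums over the listed genes, means of at least 10 or 50, exon lengths from GENCODE, and each library left out.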

Additional observations from a re-analysis of the deposited data

How the results depend on the processing

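The 4 genes were higher in KO IECs under every alternative tried for them (pseudocounts of 0.1 and 10, equal sums, each library left out). For each gene both KO libraries lay above both WT libraries. A changed pseudocount or a library left out therefore could not have reversed the direction, and only equal sums could. With the listed genes of every library scaled to equal sums, the log2 differences were 0.90 for *Hoxb13*, 0.85 for *Evx1*, 0.48 for *Hoxa13* and 0.45 for *Hottip*. This scaling shifted the median of all listed genes by -0.61, from -1.17 to -1.79, called 30 genes higher and 207 lower, and called 0 of the 4 genes. Its sums cover only genes listed for a difference, so it is not a scaling by depth. With a pseudocount of 10, *Hottip* was at 0.93 and 3 of the 4 were called. Leave-one-out ranges were 1.09 to 1.94 for *Hoxb13*, 0.88 to 1.30 for *Hoxa13*, 1.12 to 1.78 for *Evx1* and 0.92 to 1.2 for *Hottip*. Requiring means of 50 or more, which keeps 207 genes without *Evx1*, left 120 called lower.

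With 1 library left out, limma called 0 to 237 of the listed genes (0 to 78 higher and 0 to 159 lower), and the lone library of a genotype was assumed to vary like the others. The limma count was 0 without library 51, 53 or 50. Calls of the 4 genes, which were listed for a difference in these same libraries, are no test of them under any setting. The order of levels per kilobase was the same with exon lengths from GENCODE and in each library. No paired analysis was possible because the columns do not carry the replicate numbers of the labels. With 2 libraries a group and unknown depth, the sizes of the differences are uncertain.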
